A study of Lotus japonicus with 24 samples.

Results

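Plants bring ammonium into organic form with a cycle of 2 enzymes. Glutamine synthetase (GS) joins ammonium to glutamate and gives glutamine, and glutamate synthase (GOGAT) passes the amide group of glutamine to 2-oxoglutarate, which gives glutamate back. In plants a plastidic GS, called GS2, is best known for recovering the ammonium of photorespiration in leaves, and cytosolic GS isozymes serve roots, vascular tissue and legume nodules. Ferredoxin-dependent GOGAT (Fd-GOGAT) draws its electrons from ferredoxin and is the main form of green leaves, and NADH-dependent GOGAT (NADH-GOGAT) is the form usually linked to roots and nodules. Asparagine synthetase stands downstream, since it uses glutamine as the donor of the amide nitrogen.

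The GS and GOGAT genes of *Lotus japonicus* were taken as all genes whose description in the deposited expression table holds the words glutamine synthetase or glutamate synthase. This gave 9 of 30243 genes, 4 described as GS, 2 as GOGAT and 3 as folylpolyglutamate synthase. The last enzyme lengthens the glutamate tail of folates. It is not a glutamate synthase and was selected only because its name contains these letters, so the cycle itself is covered by the other 6 genes. Each isozyme name comes from the best protein match, in 8 of 9 genes a protein of another species, and it is a name, not a measurement.

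Shoots and roots were sequenced from *Ljasn1-2* and WT plants of ecotype Gifu under S conditions (nodulated by *Mesorhizobium loti*, no combined nitrogen) and NS conditions (not nodulated, ammonium nitrate with potassium nitrate). *Ljasn1-2* is 1 homozygous line with a LORE1 retrotransposon in *LjASN1*, an asparagine synthetase gene. The 8 groups were therefore *Ljasn1-2* shoots S, WT shoots S, *Ljasn1-2* shoots NS, WT shoots NS, and the same 4 for roots, with 3 biological replicates each, and each replicate was a pool of 10 plants. By the methods NS plants were taken 26 days and S plants 37 days after planting, at a matched growth stage, while the series description gives 40 days for all plants. Harvest followed 8 h of light by the methods and 4 h of light by the series description. Nodulation, nitrogen source and, by the methods, age therefore cannot be told apart. Levels are given in FPKM, which divides the fragments of a gene by its length and by a size set for each library. This size was not in proportion to the reads on genes. The FPKM of 1 read times gene length was 32.2 in WT shoots S replicate 1, with 38517630 reads on genes. It was 18.0 in WT roots NS replicate 3, with 44124200. The part of this scaling in the tissue differences was not tested. Comparisons between genes of unlike length are limited by the replicate differences with length given below. The 8 groups share libraries across the comparisons below.

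The 24 libraries held 37503968 to 66820694 reads on genes. *LjASN1* (LotjaGi1g1v0118200) had 3.76 to 119 FPKM in the 12 *Ljasn1-2* libraries, against 78.8 to 695 FPKM in the 12 WT libraries, and in each of the 4 conditions the genotypes did not overlap. The summed FPKM of 4 leghemoglobin genes, which mark nodules, was 6592 to 15018 in roots S and at most 1.03 in roots NS. The 20 chlorophyll a-b binding genes, which mark green tissue, summed to 25084 to 46080.0 FPKM in shoots and 109 to 515 FPKM in roots, and 5 Casparian strip genes, which mark the root endodermis, summed to at most 0.188 FPKM in shoots and 37.6 to 183 FPKM in roots. In all 4 root groups, replicate 3 differed from replicates 1 and 2 with the length of the gene. Over genes of 6000 bases or more the median difference of log2(FPKM + 1) was 0.27 to 0.37, and over genes under 1000 bases it was -0.48 to -0.42. In roots, replicate 3 had 1.86 to 2.56 times the mean of the other replicates for NADH-GOGAT (10423 bases) and 1.27 to 2.11 times for Fd-GOGAT (6772 bases), but 0.517 to 0.793 times for GS2 (2263 bases) and 0.522 to 0.755 times for the cytosolic GS (2925 bases). In shoots the medians of these length classes lay between -0.33 and 0.11 for replicate 3, and replicate 1 differed with length in the other direction from root replicate 3. Its median was 0.14 to 0.58 over genes under 1000 bases and -0.18 to -0.03 over genes of 6000 bases or more, with the widest gap in shoots NS of both genotypes. Results in roots are therefore given with and without replicate 3 and those in shoots with and without replicate 1 where this changes a call, and the part of this difference in each result was not tested otherwise.

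**Figure D1:**
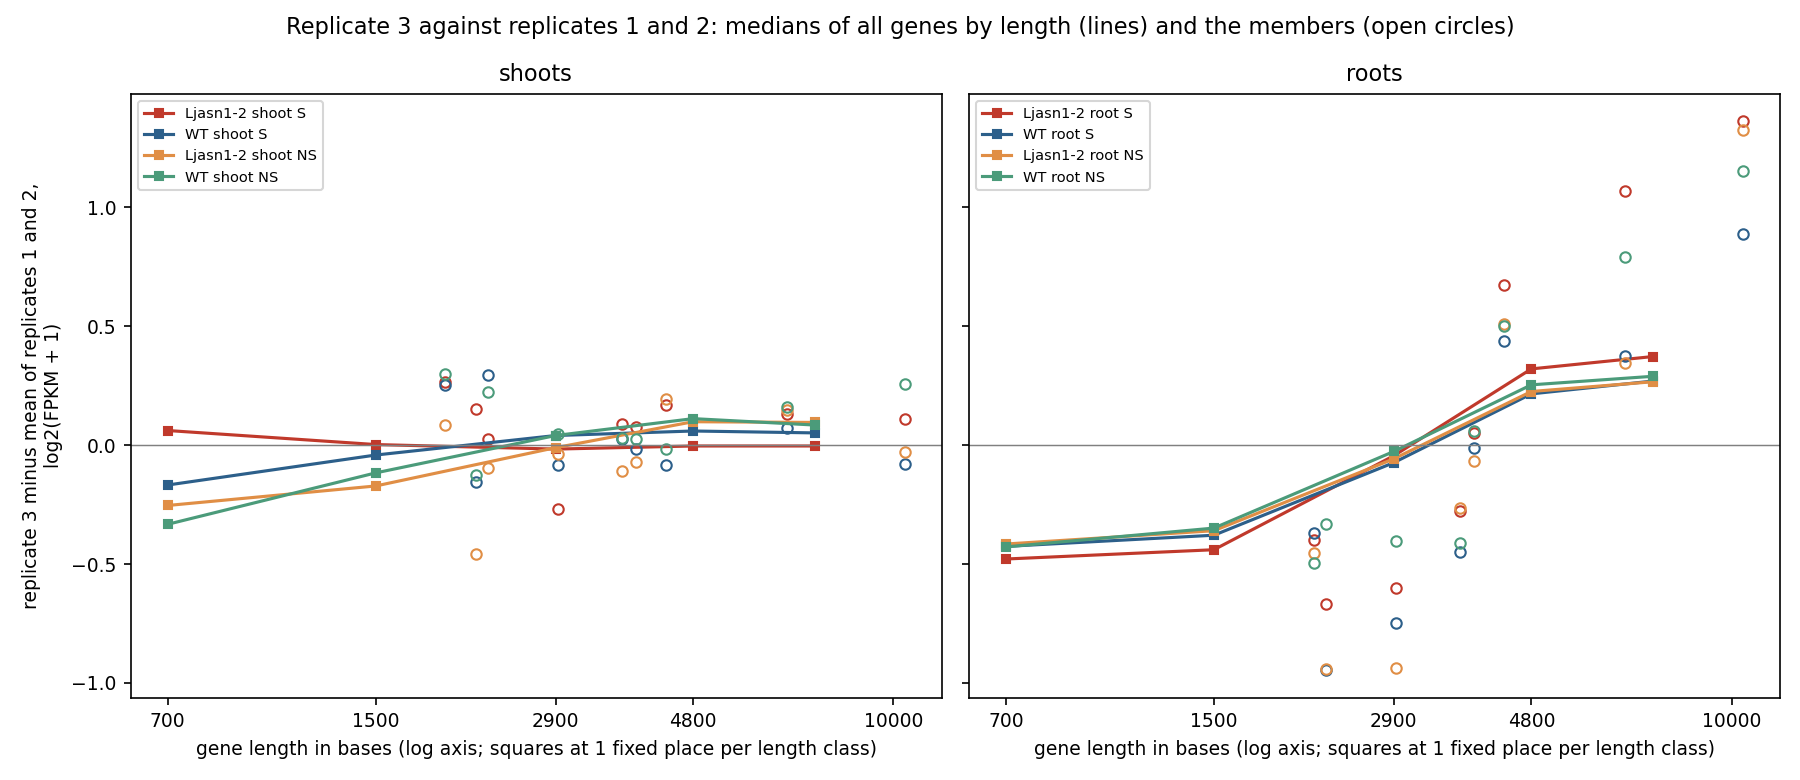
Difference between replicate 3 and the mean of replicates 1 and 2 in log2(FPKM + 1), against the gene length in bases on a log axis. Squares joined by lines are the medians over all genes in 5 length classes, open circles are the members with at least 1 FPKM in all 3 libraries, and colours are the groups. In roots (right) all 4 lines go up with length, with medians of -0.48 to -0.42 in the shortest class and 0.27 to 0.37 in the longest.

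The plastidic GS2 gene had the highest mean over the 24 libraries, 634 FPKM. It is LotjaGi6g1v0300700, on chromosome 6 (61825877 to 61831138, plus strand, as the deposited table gives it, with the genome build not given in the sources used here), and its best match is the chloroplastic leaf isozyme of pea. It had 1048, 959 and 1019.7 FPKM in *Ljasn1-2* shoots S, against 884, 1059 and 1186 FPKM in WT shoots S. In shoots NS it had 876, 1091 and 915 FPKM in *Ljasn1-2* and 883, 1126 and 1163 FPKM in WT. All 12 shoot libraries thus lay in 1 narrow band, with no order of the 4 groups beyond their spread. In roots S the values were 307, 283 and 185 FPKM in *Ljasn1-2* and 285, 307 and 153 FPKM in WT. In roots NS they were 302, 290.4 and 154 FPKM in *Ljasn1-2* and 244, 279 and 207 FPKM in WT. Every root library was below every shoot library, replicate 3 was the lowest of each root group, and the 4 root groups overlapped in a chain.

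The cytosolic GS gene had the reverse distribution. It is LotjaGi6g1v0055300, on chromosome 6 (9966908 to 9972553, minus strand), and matches the *L. japonicus* cytosolic isozyme *GLN1* itself. In shoots S it had 284, 245 and 219 FPKM in *Ljasn1-2* and 290.3, 226 and 242 FPKM in WT, against 189.5, 162 and 171 FPKM in *Ljasn1-2* and 196, 154 and 179 FPKM in WT in shoots NS. In both genotypes all S shoots were above all NS shoots. In roots S it had 839, 808 and 543 FPKM in *Ljasn1-2* and 802, 932 and 514 FPKM in WT. In roots NS it had 886, 842 and 451 FPKM in *Ljasn1-2* and 796, 826 and 612 FPKM in WT. The 4 root groups were not separable, and replicate 3 was lowest in each. The order of the levels was roots, then shoots S, then shoots NS, with no overlap between these 3 blocks.

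Another GS gene, LotjaGi2g1v0192900 (chromosome 2, 62494125 to 62498732, plus strand), is described by the nodule GS isozyme of *Medicago sativa*, the form that takes up ammonium from nitrogen fixation in that species. It was not limited to nodulated roots. The 12 shoot libraries ranged from 75.3 to 133 FPKM, with overlap of all 4 groups. In roots it had 250.0, 222 and 178 FPKM in *Ljasn1-2* roots S and 229, 257 and 188 FPKM in WT roots S, against 172, 187 and 131 FPKM in *Ljasn1-2* roots NS and 169.5, 185 and 126 FPKM in WT roots NS. Only the groups of WT did not overlap here, but each S library was above the NS library of the same genotype and replicate number.

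The last GS gene, LotjaGi1g1v0095400 (chromosome 1, 14468932 to 14475217, plus strand), is described by a nodule isozyme as well, from *Vigna aconitifolia*, but nearly all of its reads were in shoots. It had 4.23, 5.19 and 5.83 FPKM in *Ljasn1-2* shoots S and 4.67, 6.31 and 6.67 FPKM in WT shoots S. In shoots NS it had 3.14, 3.21 and 3.43 FPKM in *Ljasn1-2* and 3.69, 4.51 and 5.25 FPKM in WT. Roots S held 19, 9 and 7 reads of it in *Ljasn1-2* (0.248, 0.106 and 0.0776 FPKM) and 16, 11 and 12 reads in WT (0.193, 0.123 and 0.137 FPKM). Roots NS held 1, 3 and 1 reads in *Ljasn1-2* and 1, 2 and 2 reads in WT, at most 0.0332 FPKM. All 6 nodulated root libraries were above all 6 NS root libraries, but no root library came near 1 FPKM. The ratio of the mean FPKM of shoots to that of roots was 35.3 in *Ljasn1-2* S (interval 25.4 to 50.7), 39.0 in WT S (28.5 to 54.8), 193 in *Ljasn1-2* NS (82.5 to 593) and 266 in WT NS (114 to 819). These are 95% exact Poisson intervals of the summed root reads, which cover counting error only. Chlorophyll a-b binding genes were also higher in roots S (184 to 515 FPKM summed over 20 genes) than in the roots NS (109 to 248 FPKM), with overlap, and their part in the root reads of this gene was not tested. How reads that match several GS genes were counted is not given in the sources used here, so the share of reads that the 4 genes have in common was not tested.

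**Figure D2:**
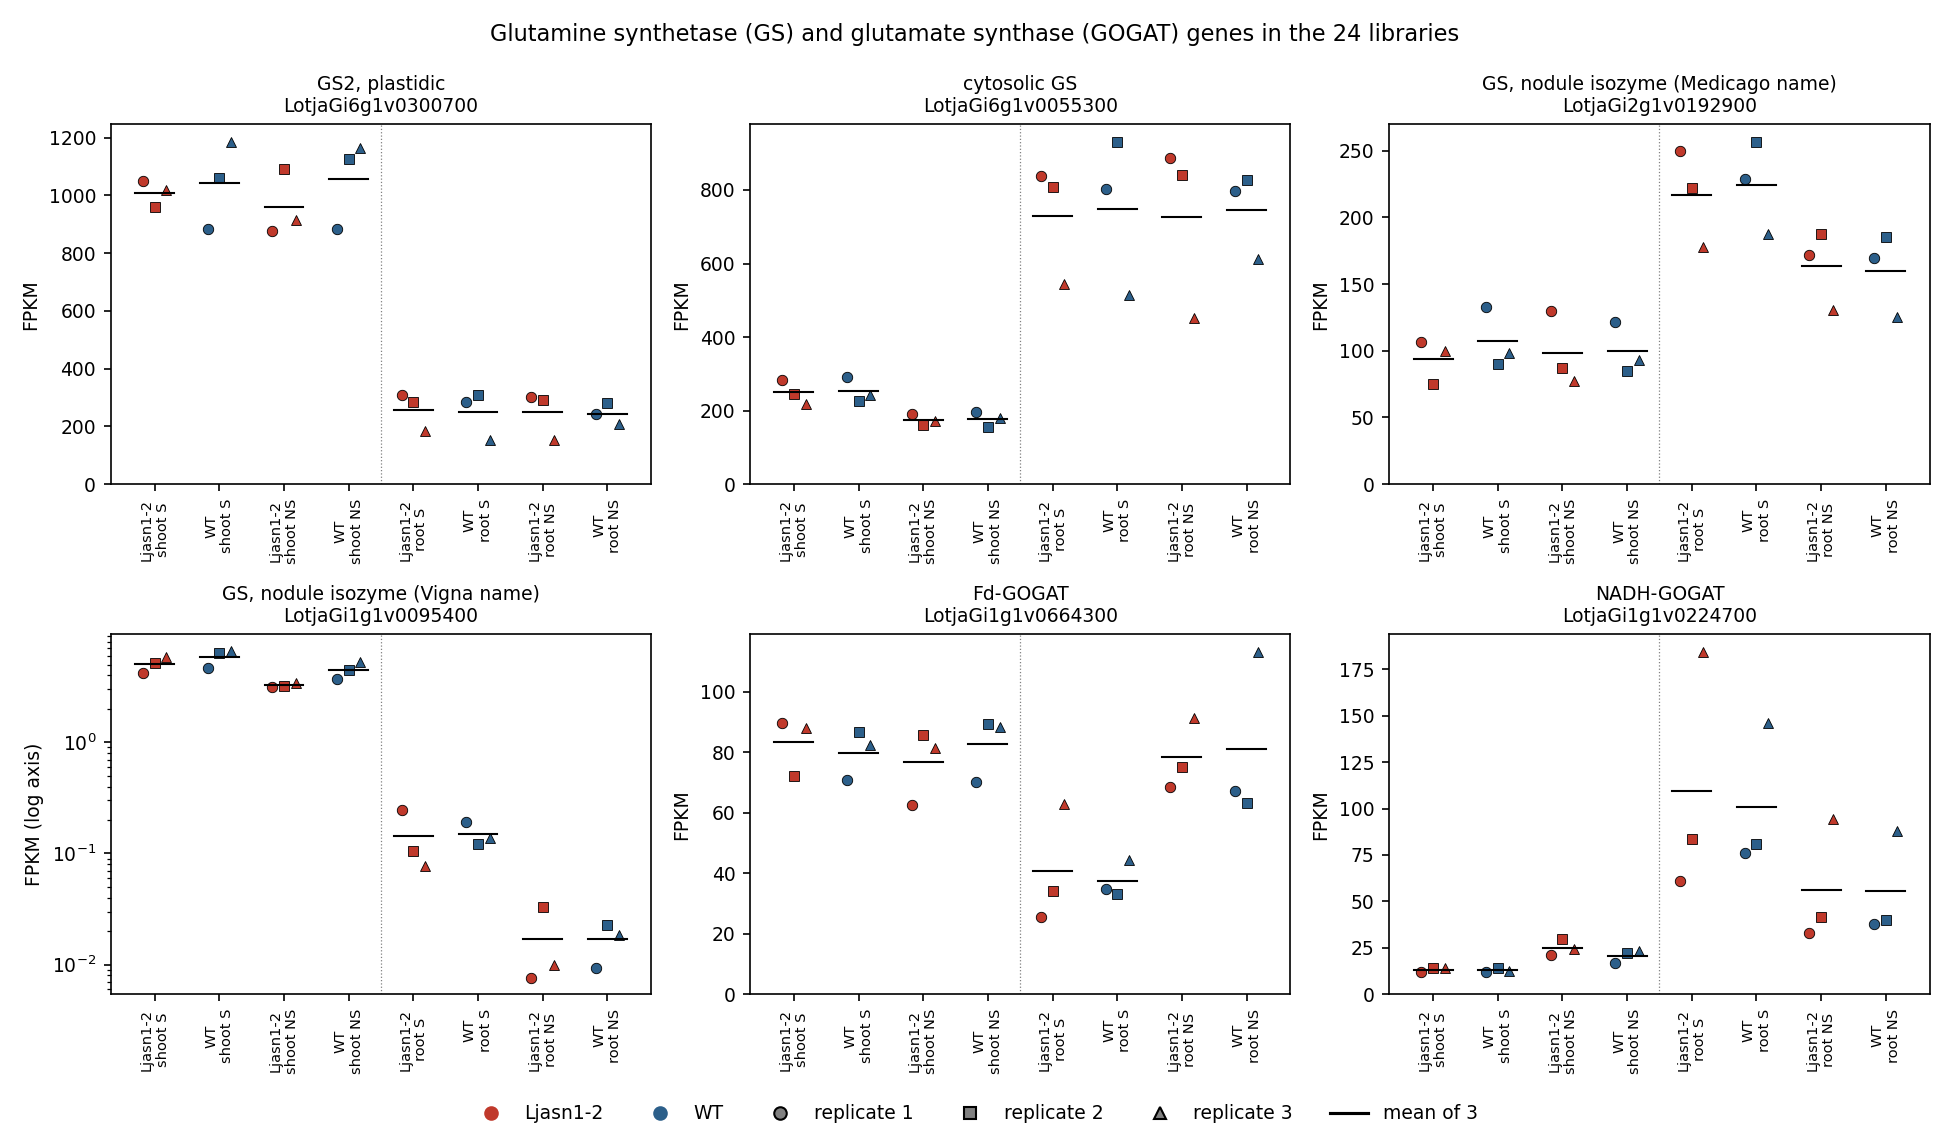
FPKM of the 4 GS and the 2 GOGAT genes in each of the 24 libraries, with *Ljasn1-2* in red, WT in blue, symbols for replicates 1 to 3 and bars for the means of 3 libraries. The axes are linear from 0, except for LotjaGi1g1v0095400, which has a log axis. GS2 is at 876 to 1186 FPKM in shoots and 153 to 307 FPKM in roots. The 2 genotypes overlap in each pair of groups, except for LotjaGi1g1v0095400 in shoots NS. There *Ljasn1-2* is at 3.14 to 3.43 FPKM and WT at 3.69 to 5.25 FPKM.

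Within each library the GS genes were set against their sum. The sum of the 4 genes was 1166 to 1533 FPKM in shoots and 735 to 1496 FPKM in roots, so the total overlapped while the make-up did not. GS2 made up 67.4 to 82.2% of it in shoots and 17.9 to 22.2% in roots. The cytosolic LotjaGi6g1v0055300 made up 11.3 to 22.1% in shoots and 59.9 to 65.8% in roots. The share of LotjaGi2g1v0192900 was 5.86 to 10.9% in shoots, 16.9 to 21.9% in roots S and 12.6 to 17.8% in roots NS. Replicate 3 of roots was below the mean of the other replicates for all 3 abundant GS genes, at 0.708 to 0.772 times for LotjaGi2g1v0192900. In *Ljasn1-2* roots NS the cytosolic gene had a coefficient of variation of 33.0% for its FPKM and a share of 63.4 ± 1.93%, and LotjaGi2g1v0192900 had one of 18.0% and a share of 14.9 ± 2.63% (SD, n = 3).

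Of the 2 GOGAT genes, Fd-GOGAT was the higher in all shoots and in all roots NS except *Ljasn1-2* replicate 3. NADH-GOGAT was the higher in all roots S. Fd-GOGAT is LotjaGi1g1v0664300 (chromosome 1, 122591207 to 122619380, plus strand), matched to the chloroplastic enzyme of spinach. In shoots its 12 libraries were at 62.6 to 89.6 FPKM, with all 4 groups overlapping. In roots S it had 25.6, 33.9 and 62.9 FPKM in *Ljasn1-2* and 34.7, 33.1 and 44.2 FPKM in WT, against 68.3, 75.2 and 91.3 FPKM in *Ljasn1-2* and 67.1, 63.2 and 113 FPKM in WT in roots NS. S and NS did not overlap within either genotype, and roots NS (63.2 to 113 FPKM) overlapped with shoots. Replicate 3 was the highest library of each root group.

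NADH-GOGAT is LotjaGi1g1v0224700 (chromosome 1, 51351414 to 51365085, minus strand), matched to the amyloplastic enzyme of *M. sativa*. In shoots S it had 11.9, 13.9 and 13.9 FPKM in *Ljasn1-2* and 12.1, 13.9 and 12.2 FPKM in WT, against 20.9, 29.8 and 24.4 FPKM in *Ljasn1-2* and 16.6, 22.2 and 23.1 FPKM in WT in shoots NS. All S shoots were below all NS shoots. In roots S it had 60.8, 83.4 and 185 FPKM in *Ljasn1-2* and 76.3, 80.9 and 146 FPKM in WT. In roots NS it had 32.8, 41.7 and 94.2 FPKM in *Ljasn1-2* and 38.0, 40.0 and 87.8 FPKM in WT. Replicate 3 of roots NS lay above replicates 1 and 2 of roots S, so the groups overlapped, although each same-numbered S library was 1.66 to 2.02 times its NS partner. The order was thus roots, then shoots NS, then shoots S, with no overlap between these 3 blocks. The ratio of NADH-GOGAT to Fd-GOGAT in the same library was 0.132 to 0.193 in shoots S and 0.236 to 0.347 in shoots NS. In roots it was 2.20 to 3.30 under S conditions and 0.480 to 1.03 under NS conditions. Replicate 3 had the highest ratio of each root group, and without it the ranges were 2.20 to 2.46 and 0.480 to 0.633. Neither tissue showed overlap between S and NS libraries in this ratio.

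**Figure D3:**
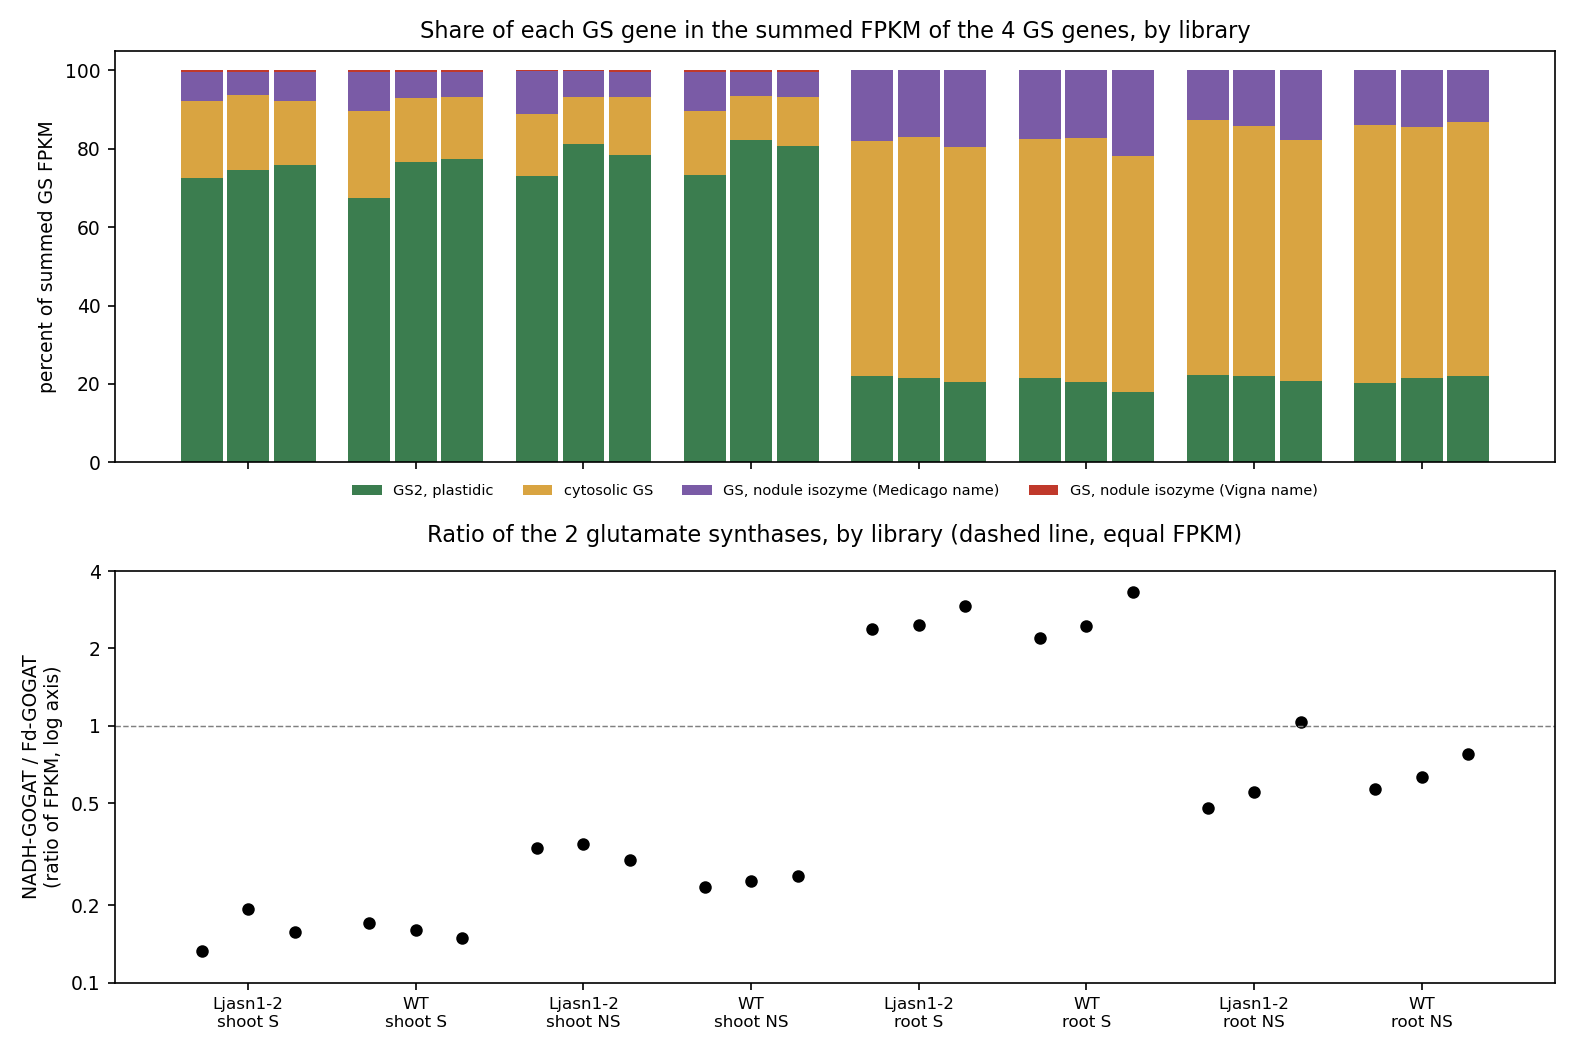
Top, share of each of the 4 GS genes in their summed FPKM, as stacked bars from 0, 1 bar per library in the order replicate 1 to 3. Bottom, ratio of NADH-GOGAT to Fd-GOGAT FPKM on a log axis, 1 point per library, with a dashed line at equal FPKM. The 6 roots S libraries are at ratios of 2.20 to 3.30 and all shoots are at 0.347 or less.

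Tissues, nutrition and genotypes were then compared with limma on log2(FPKM + 1), in fits over all genes with at least 1 FPKM in 3 libraries, and a gene was called at a Benjamini-Hochberg adjusted p under 0.05. Log2 changes below are differences on this scale. Between tissues, 9 of 9 members were called in shoots over roots in WT S (55.1% of all genes tested were called), 7 of 9 in WT NS (52.5%), 7 of 9 in *Ljasn1-2* S (54.5%) and 7 of 9 in *Ljasn1-2* NS (52.7%). These counts include LotjaGi1g1v0095400, which passed the filter only through its shoots and so had to differ. Of the other 8 members 8 were called in WT S and 6 in each of the other 3 comparisons. GS2 was higher in shoots in each, with 1009 against 258 FPKM in *Ljasn1-2* S and a log2 change of 2.00 (SE 0.25, limma adjusted p = 1.55e-04). The other 3 values for it were 2.12, 2.11 and 2.00. The cytosolic LotjaGi6g1v0055300 was lower in shoots, with log2 changes of -1.53 in both genotypes under S conditions and of -2.07 in WT and -1.99 in *Ljasn1-2* under NS conditions. LotjaGi2g1v0192900 was lower in shoots S (-1.199 in *Ljasn1-2*, -1.07 in WT) and in shoots NS (-0.75 and -0.68). The 2 NS calls of this gene were lost without replicate 2 or 3 of the shoots or replicate 1 or 2 of the roots (limma adjusted p from 0.0849 to 0.123). The log2 changes of LotjaGi1g1v0095400, 2.07 to 2.57, understate the ratios given above.

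The tissue differences of the GOGAT genes had unlike sizes under S and NS conditions. This was tested below as an interaction, and the calls did not hold under every alternative fit. NADH-GOGAT was lower in shoots S, with 13.2 ± 1.17 FPKM in shoots against 109.6 ± 65.9 FPKM in roots (SD, n = 3 each) of *Ljasn1-2* and a log2 change of -2.80 (SE 0.35, limma adjusted p = 1.44e-04). In WT S it was 12.8 ± 0.992 FPKM in shoots against 101 ± 39.0 FPKM in roots, a log2 change of -2.83 (SE 0.24, limma adjusted p = 6.91e-06). Under NS conditions the log2 change was -1.001 in *Ljasn1-2* (limma adjusted p = 0.0433) and -1.29 in WT (limma adjusted p = 0.00775). The *Ljasn1-2* NS call of LotjaGi1g1v0224700 was lost without any of the 3 shoot libraries or without root replicate 2 (limma adjusted p from 0.0603 to 0.130). Fd-GOGAT was higher in shoots S, by 1.103 in *Ljasn1-2* (limma adjusted p = 0.0124) and 1.08 in WT (limma adjusted p = 4.11e-04), and the first call of LotjaGi1g1v0664300 was lost without *Ljasn1-2* shoot S replicate 1 (limma adjusted p = 0.0514). It was not called under NS conditions, where the log2 change was -0.03 in *Ljasn1-2* (95% interval -0.46 to 0.39) and 0.07 in WT (-0.48 to 0.62).

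Roots S were then set against roots NS. In WT roots 1 of 8 members was called, Fd-GOGAT, and in *Ljasn1-2* roots 0 of 8 were (limma, 2 at an unadjusted p under 0.05, and 0 with voom weights), while 24.1% of all genes tested were called in WT roots and 27.8% in *Ljasn1-2* roots. Fd-GOGAT was 40.8 ± 19.6 FPKM in roots S against 78.3 ± 11.8 FPKM in roots NS of *Ljasn1-2* (SD, n = 3 each), a log2 change of -1.01 (SE 0.32, limma adjusted p = 0.0505). In WT it was 37.3 ± 5.9992 against 81.2 ± 27.8 FPKM, a log2 change of -1.06 (SE 0.25, limma adjusted p = 0.0201). The WT call of LotjaGi1g1v0664300 was lost without replicate 1 or replicate 2 of WT roots S (limma adjusted p = 0.0815 and 0.0814), and without *Ljasn1-2* root S replicate 3 the gene was called in *Ljasn1-2* as well (log2 change -1.37, limma adjusted p = 0.00345). It was lower in 6 of 6 same-numbered pairs, at 0.374 to 0.689 times the NS library.

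Libraries of the same number deviated together in both root comparisons (correlations of 0.39 to 0.76). The fit with the replicate number as a block is therefore given beside this one. The labels give only numbers, so the pairing comes from these data. Replicate 3 shares a length trend in all root groups, and its part in the correlations was not tested. With the block, 4 of 8 members were called in *Ljasn1-2* roots and 4 of 8 in WT roots, where 51.9% and 48.1% of all genes were. The same 4 genes were called in each when replicate 3 of the roots was left out, a fit chosen after seeing the data, in which 43.5% of all genes were called in *Ljasn1-2* and 34.9% in WT. NADH-GOGAT was higher in roots S by 0.94 in *Ljasn1-2* (95% interval 0.71 to 1.17 with the block) and by 0.90 in WT (0.69 to 1.12), with limma adjusted p of 1.72e-04 and 6.19e-04 with the block, 0.0105 and 0.00207 without replicate 3, and 0.209 and 0.134 in the fit of all 6 libraries without block. For NADH-GOGAT, leaving out WT root NS replicate 3 alone gave LotjaGi1g1v0224700 a log2 change of 1.29 (limma adjusted p = 0.0282). LotjaGi2g1v0192900 was higher by 0.41 in *Ljasn1-2* and 0.49 in WT, with limma adjusted p of 0.0172 and 0.00383 with the block, 0.0427 and 0.0279 without replicate 3, and 0.236 and 0.159 without block. Fd-GOGAT had limma adjusted p of 0.00142 and 7.30e-04 with the block. GS2 and the cytosolic GS were not called in any of these fits. With the block, the 95% interval was -0.19 to 0.35 in *Ljasn1-2* and -0.38 to 0.33 in WT for GS2, and -0.26 to 0.35 and -0.30 to 0.25 for the cytosolic gene. Nodules are part of roots S only, as the leghemoglobin sums show, and in such whole-organ samples fewer cells of a type and less RNA per cell cannot be told apart. The sums of Casparian strip genes were lower in the roots S (37.6 to 59.3 FPKM) than in the roots NS (77.4 to 183 FPKM), and the part of this in the GS and GOGAT differences was not tested.

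In shoots NADH-GOGAT was lower under S conditions. In S over NS 2 of 9 members were called in *Ljasn1-2* shoots (11.9% of all genes) and 1 of 9 in WT shoots (6.18%). NADH-GOGAT had 13.2 ± 1.17 FPKM in shoots S against 25.0 ± 4.46 FPKM in shoots NS of *Ljasn1-2* (SD, n = 3 each), a log2 change of -0.86 (SE 0.14, limma adjusted p = 0.00403). In WT shoots it had 12.8 ± 0.992 against 20.6 ± 3.54 FPKM, a log2 change of -0.64 (SE 0.14, limma adjusted p = 0.0357). The groups did not overlap in either genotype, and in the 3 same-numbered pairs of WT the S library had 0.530 to 0.731 times the FPKM of the NS library. Without replicate 1 of the shoots, a fit chosen after seeing the data, NADH-GOGAT had log2 changes of -0.91 in *Ljasn1-2* and -0.75 in WT (limma adjusted p = 0.00425 and 0.00105). The WT call of LotjaGi1g1v0224700 was lost without any 1 of the 3 shoot S libraries or without shoot NS replicate 2 or 3 (log2 changes from -0.70 to -0.56, limma adjusted p from 0.0867 to 0.164). In 1 fit over 24 libraries, which shares 1 spread with the roots, it had adjusted p of 0.208 in *Ljasn1-2* and 0.475 in WT, and without the filter 0.0752 in WT. The second call in *Ljasn1-2* shoots was LotjaGi1g1v0095400, with 5.08 ± 0.804 FPKM in shoots S against 3.26 ± 0.151 FPKM in shoots NS and a log2 change of 0.51 (SE 0.12, limma adjusted p = 0.0286). It was lost without replicate 2 or 3 of either group (limma adjusted p from 0.0578 to 0.144) and without the filter (0.0774). In WT shoots its log2 change was 0.33 (limma adjusted p = 0.309). The chlorophyll a-b binding genes were also higher in shoots S, with sums of 38074 to 38905 FPKM in shoots S against 25084 to 33139 FPKM in shoots NS of *Ljasn1-2* and 39676 to 46080.0 against 33360 to 35035 FPKM in WT. These groups did not overlap. The sums of 5 Rubisco small subunit genes were 21004 to 23539 FPKM in shoots S against 15569 to 18474 FPKM in shoots NS of *Ljasn1-2*, without overlap. In WT they were 20424 to 22450 FPKM in shoots S against 19247 to 23313 FPKM in shoots NS, with overlap. The part of these markers in the member differences was not tested.

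The cytosolic LotjaGi6g1v0055300 was near the threshold in shoots, with log2 changes of 0.51 in *Ljasn1-2* (SE 0.15, limma adjusted p = 0.0528) and 0.52 in WT (SE 0.15, limma adjusted p = 0.0940). The groups did not overlap in either genotype, and in the 3 same-numbered pairs of WT the S library had 1.35 to 1.48 times the FPKM of the NS library. Without *Ljasn1-2* shoot NS replicate 1 it was called in *Ljasn1-2* (limma adjusted p = 0.0170), and without WT shoot NS replicate 1 in WT (limma adjusted p = 0.0496). Without replicate 1 of both shoot groups it was called in both genotypes (limma adjusted p = 0.0348 in *Ljasn1-2* and 0.0106 in WT), and LotjaGi1g1v0086300 in WT as well (0.0335). Same-numbered libraries of WT shoots deviated together (0.41 to 0.71), and with the block 4 of 9 members were called there, where 23.1% of all genes were. These were NADH-GOGAT (limma adjusted p = 0.00278), the cytosolic GS (0.00137), LotjaGi1g1v0095400 (0.0293) and the folylpolyglutamate synthase gene LotjaGi1g1v0086300 (0.0154). GS2 and Fd-GOGAT were not called between nutrition groups in shoots, with log2 changes of 0.08 and 0.12 in *Ljasn1-2* and -0.02 and -0.04 in WT.

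**Figure D4:**
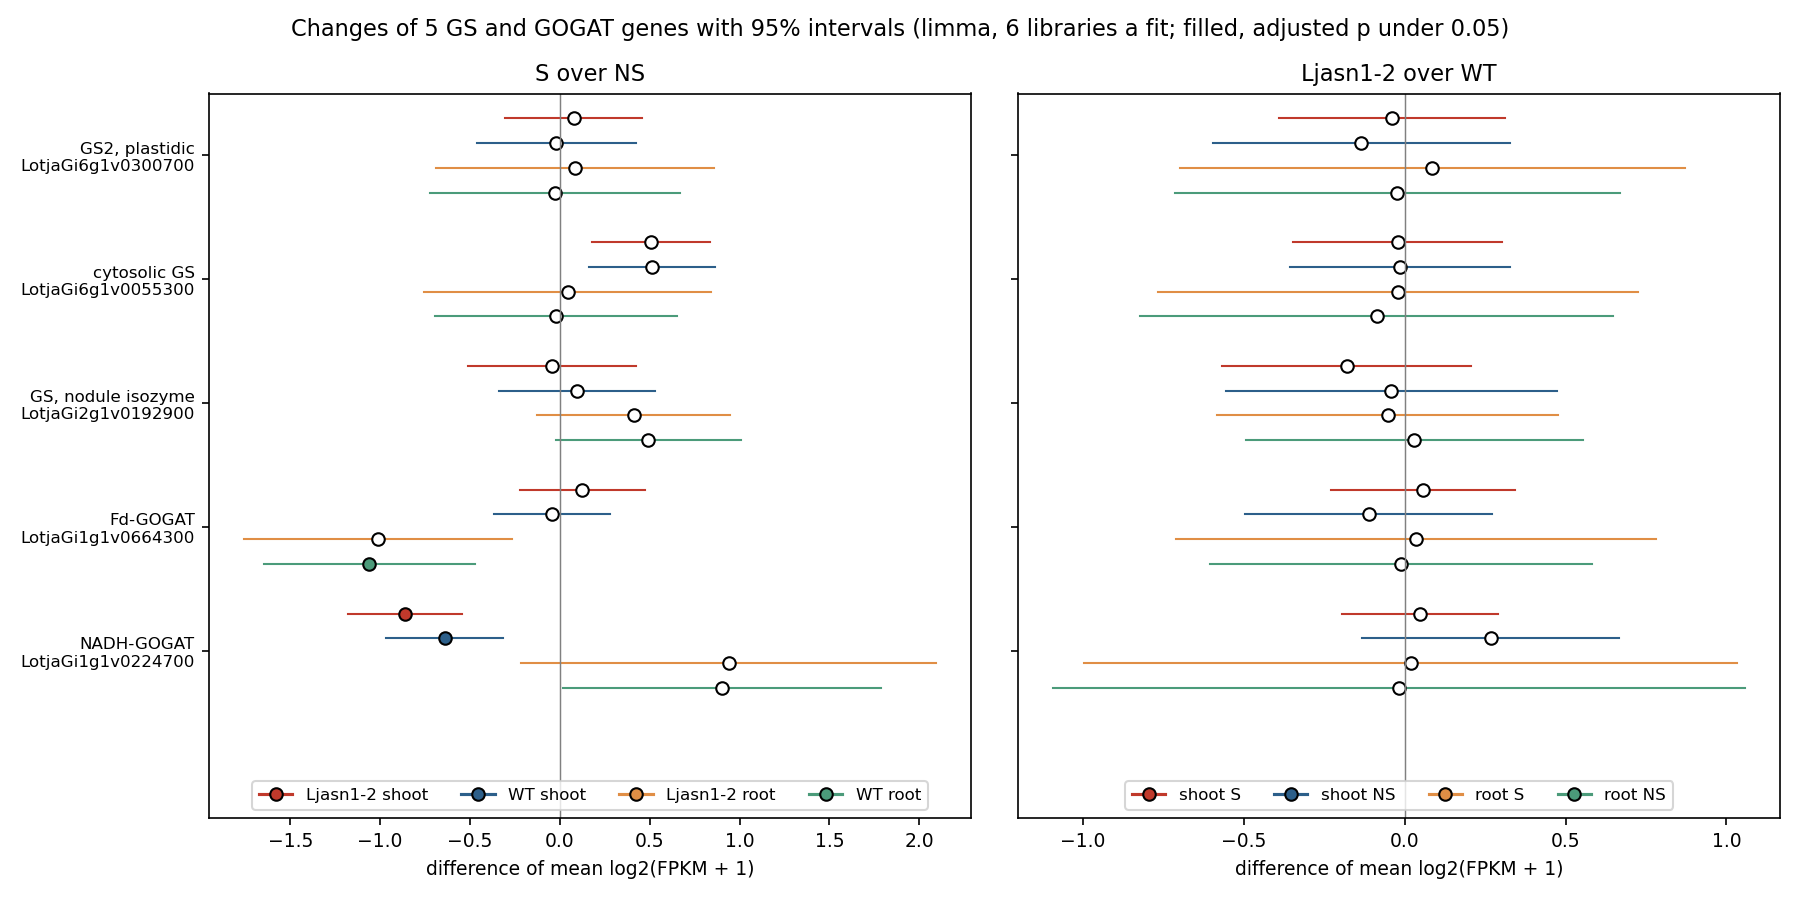
Log2 changes of 5 of the 6 GS and GOGAT genes (LotjaGi1g1v0095400, untested in roots, is not drawn) with 95% intervals, from limma fits of 6 libraries each without block. Left, S over NS in *Ljasn1-2* and WT shoots and roots. Right, *Ljasn1-2* over WT in the 4 conditions, on another axis range. Filled circles have an adjusted p under 0.05. NADH-GOGAT lies at -0.86 and -0.64 in shoots and at 0.94 and 0.90 in roots on the left, and all intervals drawn on the right include 0. The interval of LotjaGi1g1v0095400 in shoots NS, which is not drawn, excludes 0 (-0.66 to -0.05).

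Whether the S over NS change differed between roots and shoots was tested as an interaction of tissue with nutrition, in fits of 12 libraries. In *Ljasn1-2* 3 of 9 members were called (24.8% of all genes) and in WT 3 of 9 (19.1%). The change in roots minus that in shoots was 1.80 for NADH-GOGAT in *Ljasn1-2* (SE 0.56, limma adjusted p = 0.0344) and 1.54 in WT (SE 0.43, limma adjusted p = 0.0252). For Fd-GOGAT it was -1.14 in *Ljasn1-2* (SE 0.38, limma adjusted p = 0.0448) and -1.01 in WT (SE 0.30, limma adjusted p = 0.0321). The third gene was the folylpolyglutamate synthase gene LotjaGi1g1v0086300, with -0.83 and -0.84 (limma adjusted p = 0.0158 and 0.0140). With quantile normalization neither GOGAT gene was called (limma adjusted p from 0.108 to 0.134). Without the filter LotjaGi1g1v0224700 and LotjaGi1g1v0664300 were not called in *Ljasn1-2* (0.0659 and 0.0741) and the second not in WT (0.0501), and with voom weights LotjaGi1g1v0664300 was not called in *Ljasn1-2* (0.0563). Without replicate 1 of the shoots the adjusted p was 0.0964 and 0.186 for these genes in *Ljasn1-2* and 0.0611 and 0.0826 in WT, and for LotjaGi1g1v0086300 it was 0.0446 and 0.0515. Without replicate 3 of the roots 3 members were called in each genotype, and leaving out single libraries left 1 to 3 calls in each. Among the 12 libraries of *Ljasn1-2*, only without root S replicate 1 or 3, root NS replicate 3 or shoot NS replicate 1 was the call of LotjaGi1g1v0224700 kept, and only without root S replicate 3 that of LotjaGi1g1v0664300. The highest limma adjusted p was 0.0823 and 0.105. In WT the call of LotjaGi1g1v0224700 was lost without shoot NS replicate 2 or 3, shoot S replicate 1 or 3 or root NS replicate 1 or 2 (limma adjusted p up to 0.0660), and that of LotjaGi1g1v0664300 without shoot NS replicate 1, shoot S replicate 2 or 3 or root S replicate 1 or 2 (up to 0.0811). The log2 values kept their sign in all of these, from 1.34 to 1.92 for the calls of NADH-GOGAT that were lost and from -1.24 to -0.86 for those of Fd-GOGAT.

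No GS or GOGAT gene was called between the genotypes, although *LjASN1* was lower in *Ljasn1-2* in each condition. In *Ljasn1-2* over WT, 0 of 9 members were called in shoots S (0.106% of all genes tested), 0 of 9 in shoots NS (0.433%), 0 of 8 in roots S (0.0308%) and 0 of 8 in roots NS (0.0433%). At an unadjusted p under 0.05 limma gave 1 member in shoots NS and 0 in the other 3 conditions, and with voom weights on the recovered reads 0 were called in each. Same-numbered libraries deviated together in 3 of these comparisons, and with the block 0 members were called in roots S (1.61% of all genes), shoots NS (1.72%) and roots NS (4.47%). Since so few genes of any kind were called, a count of 0 among 8 or 9 is near this background. The fits without block called 17 genes in shoots S, 70 in shoots NS, 5 in roots S and 7 in roots NS. The study, with DESeq2, reported more differing genes in each of these conditions. The background is therefore that of these fits and does not measure the effect of the mutation.

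What sizes remained possible is given by the intervals. In shoots S, the 95% intervals of the 6 GS and GOGAT genes lay within -0.57 and 0.34 on the log2 scale. For GS2 the mean was 1009 ± 45.6 FPKM in *Ljasn1-2* against 1043 ± 151 FPKM in WT (SD, n = 3 each), a log2 change of -0.04 (95% interval -0.39 to 0.31). In shoots NS the intervals of the 6 genes lay within -0.66 and 0.67. Only that of LotjaGi1g1v0095400 excluded 0 there (-0.66 to -0.05). In roots the intervals without block were wider, up to -1.09 to 1.06 for NADH-GOGAT in roots NS, with 56.2 ± 33.2 FPKM in *Ljasn1-2* and 55.3 ± 28.2 FPKM in WT. With the block this interval was -0.22 to 0.18, and that of NADH-GOGAT in roots S was -0.29 to 0.33. The cytosolic GS in roots NS, the condition in which *LjASN1* was highest in WT (637 FPKM), had 726 ± 239 FPKM in *Ljasn1-2* against 745 ± 116 FPKM in WT, a log2 change of -0.09 (interval with the block -0.38 to 0.21).

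The nearest to a difference between the genotypes were 2 genes in shoots NS. LotjaGi1g1v0095400 had 3.26 ± 0.151 FPKM in *Ljasn1-2* against 4.48 ± 0.783 FPKM in WT (SD, n = 3 each), without overlap. The log2 change was -0.35 (SE 0.13, 95% interval -0.66 to -0.05, limma adjusted p = 0.789, and 0.149 with the block), and the 3 same-numbered pairs of shoots NS had ratios of 0.653 to 0.852 of *Ljasn1-2* to WT. NADH-GOGAT had 25.0 ± 4.46 FPKM in *Ljasn1-2* against 20.6 ± 3.54 FPKM in WT with overlap, a log2 change of 0.27 (SE 0.17, limma adjusted p = 1.00, and 0.194 with the block). Neither passed the threshold. Leaf markers were lower in the same libraries, with sums of 5 Rubisco small subunit genes of 15569 to 18474 FPKM in *Ljasn1-2* shoots NS against 19247 to 23313 FPKM in WT shoots NS and of the chlorophyll a-b binding genes of 25084 to 33139 against 33360 to 35035 FPKM, without overlap. Their part in these values was not tested. The interaction of genotype with nutrition was called in 0 of 9 members in shoots (0.216% of all genes) and 0 of 8 in roots (0%), with 0 members at an unadjusted p under 0.05 and 0 with voom weights in either tissue.

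The 3 folylpolyglutamate synthase genes were expressed at a low level. LotjaGi1g1v0086300 (chromosome 1, 12491074 to 12500344, plus strand) was highest, with 11.4 to 16.9 FPKM in shoots and 2.83 to 7.002 FPKM in roots. It was higher in shoots over roots in all 4 comparisons (log2 changes from 0.92 to 1.77). In roots each S library had 0.614 to 0.674 times the FPKM of its same-numbered NS library in 6 of 6 pairs, with log2 changes of -0.52 in both genotypes (limma adjusted p = 0.0677 in *Ljasn1-2* and 0.0852 in WT, and 0.00518 and 0.00402 with the block). In shoots it had 15.3 ± 2.01 FPKM under S conditions against 12.1 ± 1.196 FPKM under NS conditions in *Ljasn1-2* (SD, n = 3 each). In WT shoots it had 14.9 ± 0.277 against 11.8 ± 0.249 FPKM. It was not called in the fits of all 6 libraries without block (limma adjusted p = 0.173 in *Ljasn1-2* and 0.0986 in WT). As given above, it was called in WT without replicate 1 of the shoots. LotjaGi6g1v0066300 (chromosome 6, 12582717 to 12598897, plus strand) had 3.62 to 5.63 FPKM over all libraries, and LotjaGi5g1v0134600 (chromosome 5, 31880337 to 31898996, plus strand) had 1.47 to 4.94 FPKM. LotjaGi6g1v0066300 was called between tissues in WT S only (log2 change 0.34, limma adjusted p = 0.0433), and the call was lost without any 1 shoot library or without root replicate 1 or 2 (limma adjusted p from 0.0942 to 0.135). LotjaGi5g1v0134600 was called in WT S (0.45), WT NS (0.63) and *Ljasn1-2* NS (0.48), and each call was lost on leaving out single libraries of either tissue other than root replicate 3, with WT NS shoot replicate 1 as the other exception (limma adjusted p from 0.0503 to 0.168). In *Ljasn1-2* S both were called without root S replicate 3 (0.34 and 0.71, limma adjusted p = 0.0280 and 0.00104), and not with it.

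The genes most like 3 of the members over the 24 libraries were looked up by Pearson correlation of log2(FPKM + 1) among 18738 other genes. The points share tissue, nutrition and the length effect of replicate 3, so the values describe these libraries only. For GS2 the 5 most similar genes had r of 0.988 to 0.992 and were LotjaGi4g1v0212300, LotjaGi1g1v0544300 and LotjaGi4g1v0195800, all described as subunits of the chloroplast Clp protease, the chloroplast cysteine synthase LotjaGi4g1v0067900 and the isoprenylated protein LotjaGi4g1v0034500. For Fd-GOGAT r was 0.931 to 0.955, and the first gene was LotjaGi2g1v0299600, a probable S-acyltransferase. For NADH-GOGAT r was 0.965 to 0.986, led by the calcium-transporting ATPase LotjaGi6g1v0234000 (0.986) and the RNA helicase LotjaGi5g1v0106200 (0.976). Among the members themselves, GS2 and the cytosolic GS had r = -0.85, and GS2 and LotjaGi1g1v0095400 had r = 0.96.

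Other genes around the cycle gave the setting. They were taken by description as asparagine synthetases, asparaginases, aspartate aminotransferases, glutamate dehydrogenases, phosphoenolpyruvate carboxylases, nitrate and nitrite reductases, ammonium transporters, isocitrate dehydrogenases and glutamate decarboxylases, 53 genes in all. In *Ljasn1-2* over WT 1 of the 31 to 33 genes tested was called in each of the 4 conditions, which was *LjASN1* itself, and it was lower. In *Ljasn1-2* roots S over NS 7 of 33 were called higher and 5 lower, and in WT roots 5 higher and 8 lower, beside 27.8% and 24.1% of all genes tested that were called in either direction. In shoots 4 of 32 were higher and 4 lower in each genotype, beside 11.9% of all genes in *Ljasn1-2* and 6.18% in WT. Nitrite reductase, which makes the ammonium that GS uses when nitrate is the source, had 38.6 ± 6.36 FPKM in *Ljasn1-2* roots S against 382 ± 100.5 FPKM in roots NS (SD, n = 3 each), a log2 change of -3.25 (limma adjusted p = 9.84e-05). In shoots the gene, LotjaGi4g1v0074400, changed by -4.51 in *Ljasn1-2* and -4.23 in WT. Nitrate reductase (LotjaGi1g1v0152000) was lower as well, with log2 changes of -3.80 in *Ljasn1-2* roots, -3.48 in WT roots, -2.67 in *Ljasn1-2* shoots and -2.42 in WT shoots. The phosphoenolpyruvate carboxylase LotjaGi3g1v0158100, an enzyme that supplies carbon skeletons, had 539 ± 40.5 FPKM in *Ljasn1-2* roots S against 74.6 ± 6.15 FPKM in roots NS. In WT it had 491 ± 90.5 against 75.1 ± 10.1 FPKM. Of the 4 genes of this description tested in roots, 1 was called higher in *Ljasn1-2*, and 1 higher and 1 lower in WT. The asparagine synthetase gene with the highest mean, LotjaGi6g1v0130800, had 1930 ± 422 FPKM in *Ljasn1-2* roots S against 924 ± 284 FPKM in roots NS (log2 change 1.09, limma adjusted p = 0.0511), and 2288 ± 1003 against 812 ± 88.1 FPKM in WT (1.38, limma adjusted p = 0.0421). For nitrate reductase and LotjaGi6g1v0130800 another placement of the decimal points of some values remained possible. Beside these values, GS2 and the cytosolic GS had log2 changes between -0.03 and 0.08 in roots. The glutamate dehydrogenase LotjaGi3g1v0023400, which can release or bind ammonium, had group means of 13.9 to 19.1 FPKM over all 8 groups. It was not called in any S over NS comparison. Of the 4 glutamate dehydrogenase genes tested in roots, 2 were called lower in S over NS in WT and 1 in *Ljasn1-2*.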

How the data were processed

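Libraries from polyadenylated RNA were made with a strand-marking (dUTP) kit and sequenced by Novogene. The submitters' processing notes name fastp, featureCounts 1.5.0-p3 and DESeq2 1.20.0. The aligner and build are not given in the sources used here. The authors deposited 1 table of FPKM values and gene lengths, in which the 384363 of 725832 values that are 1 or more lack their decimal point. Each was restored as a value that gives a whole number of reads, chosen from the replicates and then from the order of the rows. Each value had such a number. Other placements were sought by moving the points of at most a pair of values per gene by 1 place. No member had another such placement that kept the order of the rows, while 182 other genes did. Larger moves were not tried. The design assumed intact FPKM, and its test was kept.

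Comparisons used limma 3.58.1 (R 4.3.3) on log2(FPKM + 1), two-sided, with a mean-variance trend and Benjamini-Hochberg adjustment over all genes tested, those of 1 FPKM or more in 3 libraries. Each comparison had 6 libraries and each interaction 12. The fits were tested on simulated data. Alternatives were a pseudocount of 0.1, no filter, quantile normalization, voom weights on the recovered reads, 1 fit over 24 libraries, each library left out, and the replicate number as a block. The numbers were taken to pair libraries where all 3 same-numbered pairs had deviations from their group means that correlated above 0.1. This held for S over NS in *Ljasn1-2* roots (0.39 to 0.76), WT roots (0.55 to 0.73) and WT shoots (0.41 to 0.71), and for *Ljasn1-2* over WT in roots S (0.54 to 0.83), shoots NS (0.45 to 0.69) and roots NS (0.61 to 0.84). The pairing comes from the data, since the labels give only numbers. Python 3.11.15, numpy 2.4.6, pandas 2.3.3, scipy 1.17.1 and matplotlib 3.10.9 did the rest.

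Every member is named. The 5 most correlated genes were looked up for the GS and the GOGAT gene with the highest mean and for the member with the highest (most positive) S over NS log2 change in WT roots. Of each list around the cycle, the gene with the highest mean could be named. The members and lists were chosen with earlier results of these data known.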

Additional observations from a re-analysis of the deposited data

Results flagged for a closer look

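The S over NS change was called as different between roots and shoots in 3 of 9 members, tested as an interaction of tissue with nutrition in each genotype. Of all genes tested, 24.8% were called in *Ljasn1-2* and 19.1% in WT, so the count of members is near this background. For NADH-GOGAT (LotjaGi1g1v0224700) the change in roots minus that in shoots was 1.80 in *Ljasn1-2* and 1.54 in WT. It was -1.14 in *Ljasn1-2* and -1.01 in WT for Fd-GOGAT (LotjaGi1g1v0664300), and -0.83 in *Ljasn1-2* and -0.84 in WT for the folylpolyglutamate synthase gene LotjaGi1g1v0086300. All 6 passed a limma adjusted p of 0.05. With quantile normalization the adjusted p of the 2 GOGAT genes was 0.108 to 0.134. Without the filter 1 member was called in *Ljasn1-2* (0.0659 for LotjaGi1g1v0224700 and 0.0741 for LotjaGi1g1v0664300) and 2 in WT (0.0501 for LotjaGi1g1v0664300), and with voom weights LotjaGi1g1v0664300 had 0.0563 in *Ljasn1-2*. Leaving out single libraries left 1 to 3 calls in each genotype, and the call of LotjaGi1g1v0664300 in *Ljasn1-2* was lost in 11 of 12 cases. Root replicate 3, which stood apart with gene length, enters all 6 values, and without it 3 members were called in each genotype. Shoot replicate 1, which differed with length in the other direction, enters them too, and without it 1 member was called in *Ljasn1-2* and 0 in WT (limma, 3 at an unadjusted p under 0.05, with adjusted p of 0.0515 to 0.0826).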

How the results depend on the processing

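In WT roots 1 member was called, against 2 without the filter, with quantile normalization or in 1 fit over 24 libraries, 4 with the replicate block, and 0 to 4 on leaving out libraries. Of all genes tested, 24.1% were called there, against 48.1% with the block and 34.9% without replicate 3. In *Ljasn1-2* roots 0 members were called, against 2 in 1 fit over 24 libraries, 4 with the block and 0 to 4 on leaving out libraries. The share of all genes was 27.8%, against 51.9% with the block and 43.5% without replicate 3. In WT shoots 1 member was called, against 0 without the filter or in 1 fit, 2 with quantile normalization, 4 with the block and 0 to 3 on leaving out libraries. The share of all genes was 6.18%, against 23.1% with the block. In *Ljasn1-2* shoots 2 members were called, against 1 without the filter or in 1 fit, 3 with quantile normalization, voom or the block, and 1 to 3 on leaving out libraries. The share of all genes was 11.9%, with 979 called higher and 939 lower, against 1524 and 1290 with the block. Same-numbered libraries were not taken as pairs there (-0.03 to 0.48), where the third call was LotjaGi6g1v0055300 with an adjusted p of 0.0240 under the block. Between tissues, with LotjaGi1g1v0095400 counted, *Ljasn1-2* NS gave 7 calls, against 4 without the filter, and 3 to 7 on leaving out libraries. The ranges were 4 to 7 for WT NS, 5 to 9 for *Ljasn1-2* S and 6 to 9 for WT S. Of all genes, 52.5 to 55.1% were called in the tissue fits of all 6 libraries. For tissue by nutrition, *Ljasn1-2* gave 3 calls against 1 without the filter or with quantile normalization, and WT gave 3 against 2 with either. Of all genes, 24.8% in *Ljasn1-2* and 19.1% in WT were called without these changes. With quantile normalization 2216 genes were called higher and 2850 lower in *Ljasn1-2*, against 2017 and 2475. In WT it was 1589 and 2236, against 1565 and 1904. Shares of all genes under the other alternatives are not given here. Leaving out libraries gave 1 to 3 members in *Ljasn1-2* and 0 to 3 in WT, the 0 without replicate 1 of the shoots. The comparisons of genotypes and their interaction with nutrition gave 0 under every alternative run. Same-numbered libraries were not taken as pairs between the genotypes in shoots S (-0.02 to 0.44) or between tissues (lowest -0.46 to -0.15) either, and at most 2 of the 3 numbers correlated best with their own. There the block gave 8 calls against 7 in *Ljasn1-2* S, 8 against 9 in WT S and the same counts otherwise.

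Of 2055 single log2 values recomputed, 2 reversed. LotjaGi1g1v0095400, tissue by nutrition, was -0.15 in WT and -0.34 in *Ljasn1-2*, and 2.47 and 2.22 with voom weights (adjusted p = 0.0445 and 0.0490), which work on reads without the added 1 FPKM, for a gene with 1 to 19 reads per root library. In 108 values a call was lost and in 42 gained. Another 201 changed sign with no call in either fit, 184 of them on leaving out libraries and 14 with quantile normalization. The causes were not tested. The fits without replicate 3 of the roots and without replicate 1 of the shoots were chosen after seeing the data. Groups of 3 libraries limit the precision, and under 20 reads per library limit LotjaGi1g1v0095400 in roots.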
